A study of Mus musculus with 6 samples.

Results

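Chemokine ligands are small secreted or membrane-tethered proteins that attract leukocytes through G protein-coupled receptors. The genes described here are those in the deposited count table whose symbol is Ccl, Cxcl, Cx3cl or Xcl followed by a number and at most 1 letter, without Cxcl12 and Ccl21a. The table held 24951 genes, and 37 fit this description. Of these, 29 had at least 1 count in any of the 6 libraries, 28 had more than 3 counts in at least 1 library, and 22 passed the low-count filter and were tested.

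The libraries were made from lung cells of mouse pups at postnatal day 5 (P5). Control pups were Smad4 f/f, with floxed alleles of Smad4, the shared partner of the SMAD proteins, and no Cre in the name; their genotype label reads Wildtype. Mutant pups were Smad4 f/f;Cdh5-CreERT2 and labelled Smad4 iECKO mutant, so a tamoxifen-inducible Cre was made under an endothelial promoter. Each group had 3 libraries, named by group and replicate below, and the labels describe them as independent biological samples while giving neither dose nor day of tamoxifen. The protocol names the mice HHTf/f and HHTiECKO in 1 sentence, taken here to mean the same groups. The column names of all 6 libraries share 1 tag, lit14, which the labels do not explain, so no batch separates the groups in the labels. All pups carried floxed Smad4, and no group combined Cre with intact Smad4. Cells were pulled from digested lung with CD31-coated beads, CD31 being a surface protein of endothelial cells, platelets and some leukocytes, and polyadenylated RNA was sequenced.

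Reads assigned to genes came to 14093564 to 21113926 per library. Levels are given as CPM, counts scaled to a common library size. Smad4, the targeted gene, stood at 177 to 188 CPM in the controls and 72.9 to 94.2 CPM in the mutants, and fell (log2 fold change -1.09, SE 0.10, edgeR adjusted p = 0.000604). The 10 endothelial markers checked were all detected, with a summed level of 9475 to 10516 CPM in control and 9961 to 10218 CPM in mutant libraries. Of these 10, Tek, the angiopoietin receptor, fell (log2 fold change -0.50, SE 0.09, edgeR adjusted p = 0.0128), and 9 were not called. Over all genes tested, 1.93% rose and 1.34% fell. Other cells were in the preparations too: 10 epithelial markers summed to 2210.2 to 4079.7 CPM in control and 2885 to 3279 CPM in mutant libraries, and 16 macrophage and monocyte markers to 936 to 1095 and 939.6 to 999 CPM. In such bulk samples fewer cells of a type and less RNA per cell cannot be told apart, and a ligand's transcripts cannot be assigned to endothelial or other cells.

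Ligands fall into functional groups. Cxcl9, Cxcl10 and Cxcl11 bind Cxcr3 on activated T cells and natural killer cells and are textbook interferon-induced genes. Cxcl1, Cxcl2, Cxcl3 and Cxcl5 bind Cxcr2 on neutrophils and are driven largely by NF-kB, and many CC ligands attract monocytes. Cx3cl1 and Cxcl16 are made as transmembrane proteins, and Cx3cl1 on endothelium captures and supports monocytes that carry Cx3cr1.

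The promoters of a few ligands show letters that interferon-activated factors and NF-kB are known to bind. RefSeq promoters on GRCm38.p6, the assembly the submitters' processing notes call mm10, were found for 25 of the 37 ligands, and the 250 bases before each start site were searched on both strands. The interferon-stimulated response element (ISRE) was searched as GAAA, any 2 bases and GAAA again, and was found in 978 of 32851 promoters in the table (2.98%), among them those of Cxcl10, Cxcl14 and Ccl19. The NF-kB consensus was searched as GGGRNNYYCC, with R for A or G, Y for C or T and N for any base. It was found in 2382 promoters (7.25%) and in those of 7 ligands, namely Ccl1, Ccl9, Ccl20, Cxcl1, Cxcl2, Cxcl3 and Cxcl10. The shares count promoters, of which a gene can have several, while the ligands are counted by gene. The interferon-gamma activation site (GAS), searched as TTCNNNGAA, was in 2306 promoters (7.02%) and in those of Ccl17 and Cxcl14. A match is a string of letters and does not show that a factor binds there. The stretches below are Cxcl10 (chr5:92348890-92349139, minus strand), the ligand that rose; Cxcl9 (chr5:92328080-92328329, minus strand), its neighbour and fellow Cxcr3 ligand; Cxcl2 (chr5:90903649-90903898, plus strand), a neutrophil ligand whose test did not pass; and Cx3cl1 (chr8:94771930-94772179, plus strand), the ligand that fell. They run 5′ to 3′ and end at the base before the start site, with ISRE and NF-kB matches in capitals.
Cxcl10: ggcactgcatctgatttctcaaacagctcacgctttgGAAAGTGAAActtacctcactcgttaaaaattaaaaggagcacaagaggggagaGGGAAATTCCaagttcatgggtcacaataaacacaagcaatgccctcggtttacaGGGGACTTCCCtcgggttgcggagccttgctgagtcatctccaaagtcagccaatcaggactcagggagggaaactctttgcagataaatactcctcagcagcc
Cxcl9: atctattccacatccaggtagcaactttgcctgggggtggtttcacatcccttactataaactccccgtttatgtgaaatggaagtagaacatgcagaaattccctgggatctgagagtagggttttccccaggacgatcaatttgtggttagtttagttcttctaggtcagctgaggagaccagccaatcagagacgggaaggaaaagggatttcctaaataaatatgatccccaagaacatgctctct
Cxcl2: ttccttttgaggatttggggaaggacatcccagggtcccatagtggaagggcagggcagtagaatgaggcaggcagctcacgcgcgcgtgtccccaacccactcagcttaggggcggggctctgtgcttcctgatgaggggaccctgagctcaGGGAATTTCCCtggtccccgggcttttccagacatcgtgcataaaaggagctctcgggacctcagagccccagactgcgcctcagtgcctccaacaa
Cx3cl1: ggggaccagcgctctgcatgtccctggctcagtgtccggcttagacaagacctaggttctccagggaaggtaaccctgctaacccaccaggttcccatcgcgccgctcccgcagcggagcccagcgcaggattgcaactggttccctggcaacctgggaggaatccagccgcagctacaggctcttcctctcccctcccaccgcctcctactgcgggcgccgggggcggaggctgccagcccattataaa
In Cxcl10 the ISRE match GAAAGTGAAA lay 213 to 204 bases before the start, and NF-kB matches lay 159 to 150 and 104 to 94 bases before it, the nearer made of overlapping matches. Cxcl2 held GGGAATTTCCC 97 to 87 bases before its start and Cxcl1 the same letters 71 to 61 bases before its own, both from overlapping NF-kB matches, and neither held an ISRE match. The Cxcl9 and Cx3cl1 stretches held no match to any of these 3 motifs. Only exact matches within the 250 bases were counted, so a stretch without a match can still hold a variant site.

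Among the 22 tested ligands, Cxcl10 rose and Cx3cl1 fell in the mutant libraries, and 20 did not pass the test (edgeR quasi-likelihood test of mutant against control, Benjamini-Hochberg adjusted p under 0.05 over all genes). The 2 called ligands were 9.09% of those tested, while 3.27% of all 14934 genes tested were called. DESeq2 called the same number of ligands, 2, and 5.05% of all genes, and limma-voom called 1, Cxcl10, and 2.96% of all genes. The median log2 fold change was 0.08 over the tested ligands and -0.0 over all genes tested. By group, 1 of the 2 tested Cxcr3 ligands rose, 0 of 8 monocyte-attracting CC ligands, 0 of 3 neutrophil-attracting CXC ligands (Cxcl15 included), 0 of 4 homeostatic and lymphoid ligands and 0 of 3 ligands of type 2 responses were called, and 1 of the 2 membrane-bound ligands fell.

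**Figure D1:**
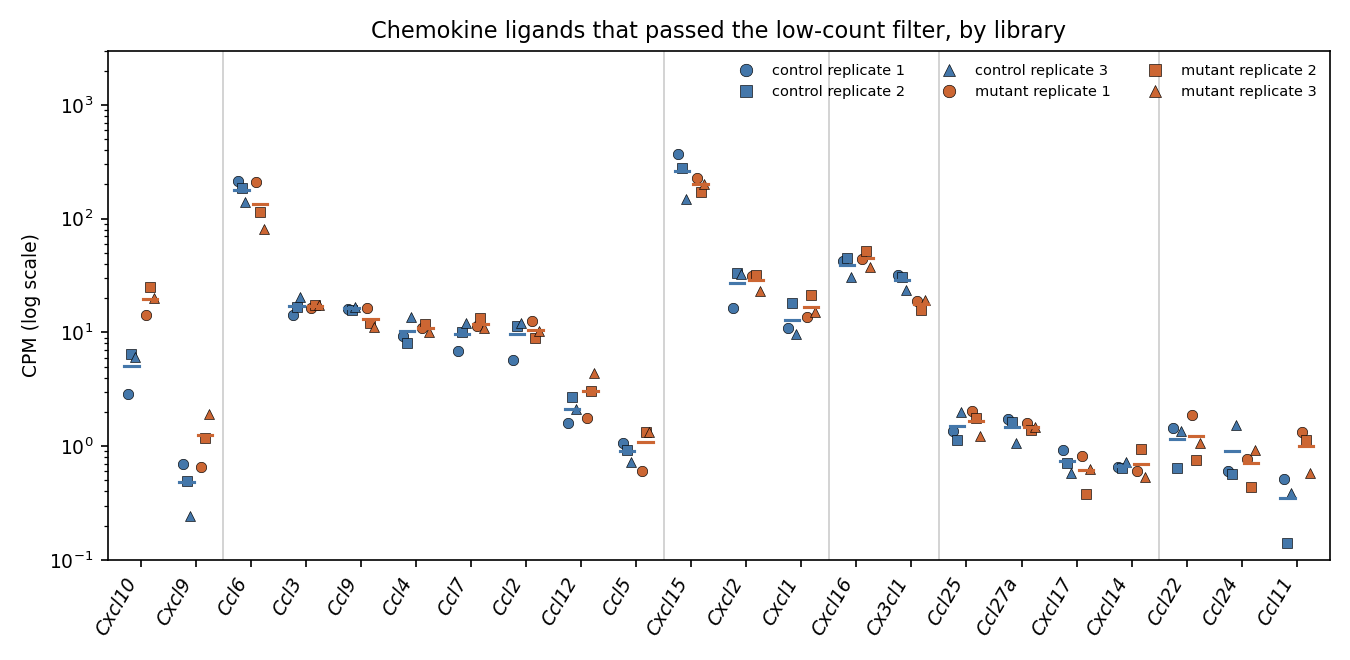
Level of each of the 22 tested ligands in CPM on a log axis, with 1 symbol per library (blue control, orange mutant), a horizontal bar for each group mean, and vertical lines between functional groups. The 3 mutant symbols of Cxcl10 lie above the 3 controls and those of Cx3cl1 below them, while most other ligands overlap.

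Cxcl10, also known as IP-10, lies on chromosome 5 from 92346638 to 92348889 on the minus strand (ENSMUSG00000034855.13 in GENCODE M21, on GRCm38). Control replicates 1, 2 and 3 had 61, 90 and 126 counts, or 2.85, 6.41 and 6.08 CPM, whereas mutant replicates 1, 2 and 3 had 259, 400 and 411 counts, or 14.2, 25.1 and 20.0 CPM. The lowest mutant library was thus above the highest control. The group means were 5.11 ± 1.97 and 19.8 ± 5.45 CPM (SD, n = 3 each). This was a 3.91-fold higher level, or 1.97 on the log2 scale (SE 0.33, adjusted p = 0.0166 in edgeR's quasi-likelihood test). Per kilobase of exon, a scale on which genes can be compared, Cxcl10 went from rank 13 to rank 10 of the 22, from 2.27 to 8.79 CPM per kb. Leaving out mutant replicate 2 or control replicate 3 ended the call of Cxcl10 (edgeR adjusted p = 0.0795 and 0.0531), with log2 fold changes of 1.66 to 2.15 over the 6 fits that each left out 1 library. Exons of Art3 on the opposite strand cover 5.91% of the exon length of Cxcl10, and the TruSeq RNA kit named in the labels does not mark strand, so reads from the shared bases cannot be told apart.

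Many interferon response genes rose in the same libraries. Of 24 such genes, with Rsad2 and Isg15 among them and no ligand on the list, 18 rose and 0 fell, while 1.93% of all genes tested rose and 1.34% fell. Their median log2 level relative to the control mean was 0.06, 0.08 and -0.09 in control replicates 1, 2 and 3 and 1.34, 2.27 and 2.43 in mutant replicates 1, 2 and 3. Cxcl10 on the same scale stood at -0.67, 0.37 and 0.30 in the controls and 1.46, 2.26 and 1.94 in the mutants, lowest among the mutants in replicate 1, as the interferon list was. The 21 NF-kB targets stood at -0.43, 0.27 and 0.09 in the controls and 0.32, 0.15 and -0.10 in the mutants. Of these 21, edgeR called 0, and 4 were at an unadjusted p under 0.05, against 2095 of all 14934 genes tested. Control replicate 1 was thus the lowest control for both Cxcl10 and the NF-kB list, and without it the log2 fold change of Cxcl10 was 1.66 (adjusted p = 0.00616).

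**Figure D2:**
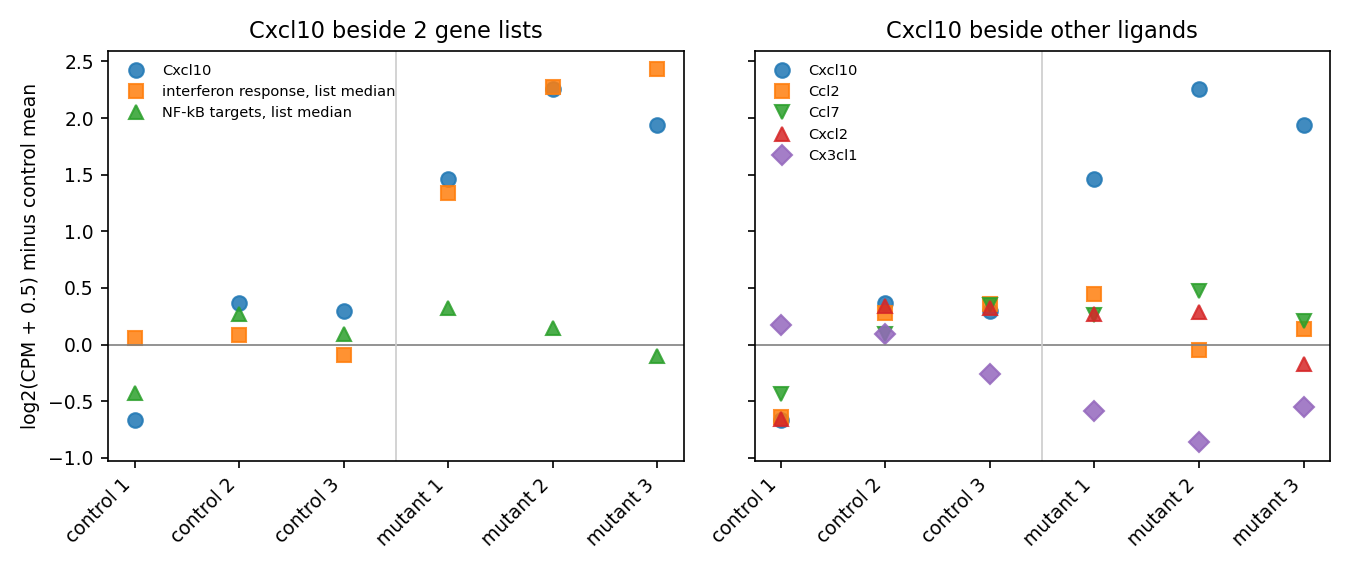
Log2 level (CPM plus 0.5) minus the control mean in each library; the left panel shows Cxcl10 with the medians of the interferon response and NF-kB lists, and the right panel Cxcl10 with Ccl2, Ccl7, Cxcl2 and Cx3cl1. In the 3 mutant libraries Cxcl10 and the interferon median lie between 1.34 and 2.43, and the NF-kB median between -0.10 and 0.32.

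The other Cxcr3 ligands were scarce. Cxcl9, encoded next to Cxcl10 from 92321347 to 92328079, had 15, 7 and 5 counts in control replicates 1, 2 and 3 and 12, 19 and 39 counts in mutant replicates 1, 2 and 3. These came to 0.700, 0.498 and 0.241 CPM and 0.659, 1.19 and 1.90 CPM, and mutant replicate 1 lay within the control range. Its log2 fold change of 1.38 (SE 0.50) did not pass (edgeR adjusted p = 0.221, unadjusted p = 0.0187). Cxcl11, which GENCODE M21 annotates as a polymorphic pseudogene in the reference strain, had 0 counts in all 3 controls and in mutant replicate 1, and 4 and 3 counts in mutant replicates 2 and 3, too few to pass the filter.

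The remaining interferon-inducible ligands on the list were CC ligands of monocytes and T cells, and none of those tested passed. Ccl12, a mouse ligand of Ccr2, stood at 1.59, 2.71 and 2.12 CPM in the controls and 1.76, 3.08 and 4.39 CPM in the mutants (log2 fold change 0.55, SE 0.35). Ccl7, another Ccr2 ligand, stood at 6.86, 10.1 and 12.2 CPM and then 11.5, 13.3 and 11.0 CPM (0.30, SE 0.21). Ccl2, the main monocyte attractant, stood at 5.74, 11.3 and 12 CPM and then 12.7, 8.91 and 10.2 CPM (0.14, SE 0.27). In Ccl2, Ccl7 and Ccl12 the lowest of all 6 libraries was control replicate 1, the groups overlapped, and the edgeR adjusted p was 0.540 for Ccl12, 0.579 for Ccl7 and 0.863 for Ccl2. Ccl5, an attractant of T cells and monocytes, stood at 1.07, 0.926 and 0.723 CPM in the controls and 0.604, 1.32 and 1.32 CPM in the mutants (0.25, SE 0.38, adjusted p = 0.820). Ccl8 had 3 to 7 counts in control and 0 to 9 in mutant libraries and was not tested.

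Set against the others, the 8 ligands on the interferon-induced list (Cxcl9, Cxcl10, Cxcl11, Ccl2, Ccl5, Ccl7, Ccl8 and Ccl12) had 6 tested members with a median log2 fold change of 0.42, all 6 above 0, and 1 called. The other ligands had 16 tested members with a median of 0.02, 10 above 0 and 6 below, and 1 called. Over all genes tested, 7399 were above 0 and 7535 below, and 1.93% were called higher and 1.34% lower. The median of the interferon-induced members depended on the list: it was 1.38 over the 3 tested of a narrow list (Cxcl9, Cxcl10, Cxcl11 and Ccl5) and 0.25 over the 9 tested of a wider list with Ccl3, Ccl4, Ccl19 and Cxcl16. The summed level of the 6 tested members was 18.8, 32.0 and 33.3 CPM in the controls and 41.4, 52.9 and 48.9 CPM in the mutants, by replicate. Cxcl10 alone made up 14.2, 25.1 and 20.0 CPM of the mutant sums.

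**Figure D3:**
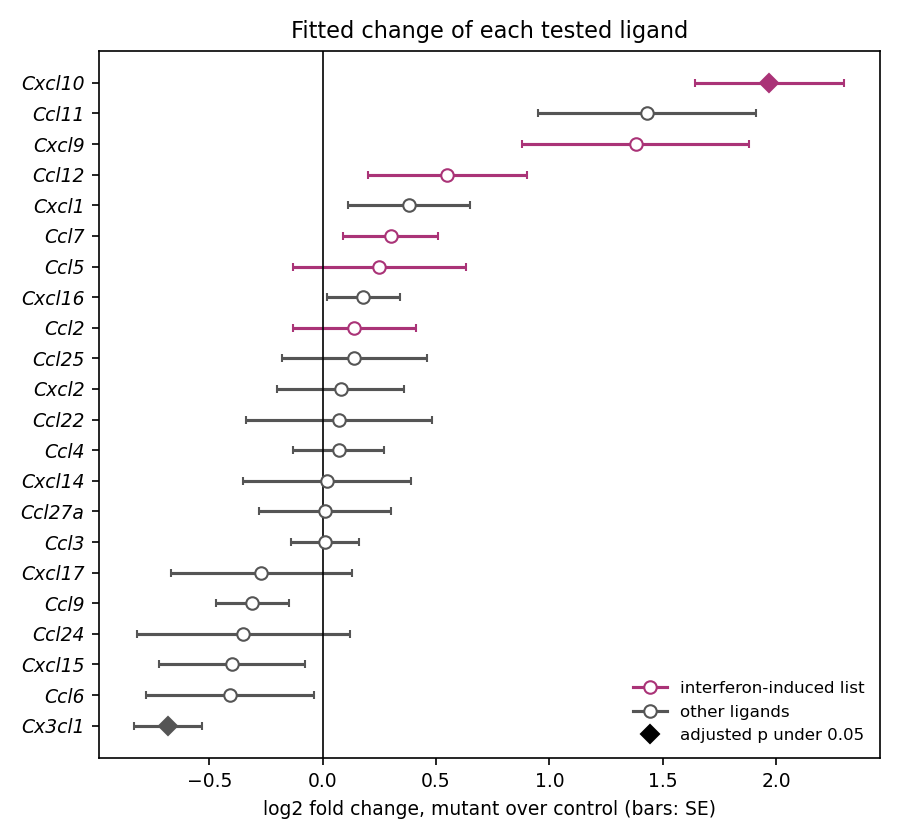
Fitted log2 fold change of mutant over control for each tested ligand, with bars for 1 SE; purple marks the interferon-induced list, grey the other ligands, and filled diamonds the 2 with an adjusted p under 0.05. Cxcl10 at 1.97 and Cx3cl1 at -0.68 are the extremes, and the 6 purple points lie to the right of 0.

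Cx3cl1, or fractalkine, lies on chromosome 8 from 94772009 to 94782427 on the plus strand (ENSMUSG00000031778.13), between Ccl22 and Ccl17, and the RefSeq start site used for its promoter lies downstream of the GENCODE start. Control replicates 1, 2 and 3 had 32.2, 30.5 and 23.8 CPM, and mutant replicates 1, 2 and 3 had 18.8, 15.6 and 19.4 CPM, so that every mutant library lay below every control. The group means were 28.8 ± 4.42 and 17.9 ± 2.07 CPM (SD, n = 3 each). Mutant libraries were thus 1.60-fold lower, with a log2 fold change of -0.68 (SE 0.15, adjusted p = 0.0327 in edgeR's quasi-likelihood test). Of the 6 fits that each left out 1 library, 1 still called Cx3cl1, that without control replicate 3 (edgeR adjusted p = 0.0171), and the others gave an adjusted p of 0.0525 (mutant replicate 3 left out), 0.0744 (mutant replicate 1), 0.0780 (control replicate 1), 0.120 (control replicate 2) and 0.164 (mutant replicate 2), with log2 fold changes of -0.80 to -0.59 over the 6. In limma-voom its adjusted p was 0.0535. Neither neighbour passed: Ccl22, a ligand of Ccr4, had a log2 fold change of 0.07 (SE 0.41) at 0.641 to 1.87 CPM, and Ccl17, which shares that receptor, had 6 to 18 counts per library and was not tested.

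Cxcl16, the other membrane-bound ligand and one that binds Cxcr6, was more abundant per kilobase than Cx3cl1. It stood at 42.3, 45.2 and 30.6 CPM in the controls and 44.3, 51.8 and 38.0 CPM in the mutants, with overlapping groups (log2 fold change 0.18, SE 0.16, edgeR adjusted p = 0.672). Zmynd15 on the opposite strand covers 18.3% of its exon length. In control libraries Cxcl16 came to 13.0 and Cx3cl1 to 7.34 CPM per kb, and in mutant libraries to 14.8 and 4.56 CPM per kb.

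The most abundant ligands per kilobase in both groups were Cxcl15 and Ccl6. Cxcl15, called lungkine and known as a product of lung epithelium, had 368, 277 and 149 CPM in the 3 controls, by replicate, and 229, 173 and 200 CPM in the mutants. Its log2 fold change was -0.40 (SE 0.32, edgeR adjusted p = 0.645), and the controls alone spanned the whole mutant range. The 10 epithelial markers, Sftpc among them, summed to 4079.7, 3422 and 2210.2 CPM in the same controls and 3006, 3279 and 2885 CPM in the mutants. Of these 10, edgeR called 0, against 3.27% of all genes tested. At an unadjusted edgeR p under 0.05 there were 0, against 2095 of all 14934 genes tested. The order of the 3 controls was the same for Cxcl15 and for the marker sum, but among the mutants replicate 2 had the lowest Cxcl15 and the highest marker sum. The part of the epithelial cells in the level of Cxcl15 was not tested. With 1 library left out, its log2 fold change ranged from -0.08 without control replicate 1 to -0.68 without control replicate 3 (edgeR adjusted p = 0.922 and 0.0577).

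Ccl6, a macrophage ligand of Ccr1, stood at 214, 186 and 141 CPM in the controls and 211, 115 and 80.8 CPM in the mutants, with the mutant range wider than the control range. Its log2 fold change of -0.41 (SE 0.37) did not pass (edgeR adjusted p = 0.684). Ccl9, its neighbour on chromosome 11 and also a Ccr1 ligand, stood at 16.0, 15.9 and 16.9 CPM in the controls and 16.3, 12.1 and 11.1 CPM in the mutants (-0.31, SE 0.16, adjusted p = 0.444). Of the macrophage and monocyte markers 0 of 16 rose and 1 fell, while 1.93% of all genes tested rose and 1.34% fell. The 1 was Mertk, a receptor for the uptake of dying cells (log2 fold change -0.57, edgeR adjusted p = 0.0125). None of the 16 was at 0 in every library. Mutant replicate 3, the library with the least Ccl6, was the lowest of all 6 libraries for 3 of the 16 (Marco, Siglecf and Chil3) and the highest for 8, Csf1r, Adgre1 and C1qa among them. Itgax, from the dendritic cell list, and Siglecf were set beside Ccl6 after their values were seen, because they were lowest in that library too. The match thus follows from the choice. Of the other tested dendritic markers, Clec9a and Zbtb46 were lowest in mutant replicate 2, and Ccr7 and Flt3 in control replicate 1. Itgax stood at 77.0, 77.8 and 38.5 CPM in the controls and 79.2, 41.6 and 24.4 CPM in the mutants, and Siglecf at 4.01, 4.56 and 3.47 and then 4.06, 2.70 and 1.90 CPM. Both are markers of alveolar macrophages, and their part in the level of Ccl6 was not tested. With 1 library left out, the log2 fold change of Ccl6 ranged from -0.15 without mutant replicate 3 to -0.89 without mutant replicate 1 (edgeR adjusted p = 0.871 and 0.102).

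**Figure D4:**
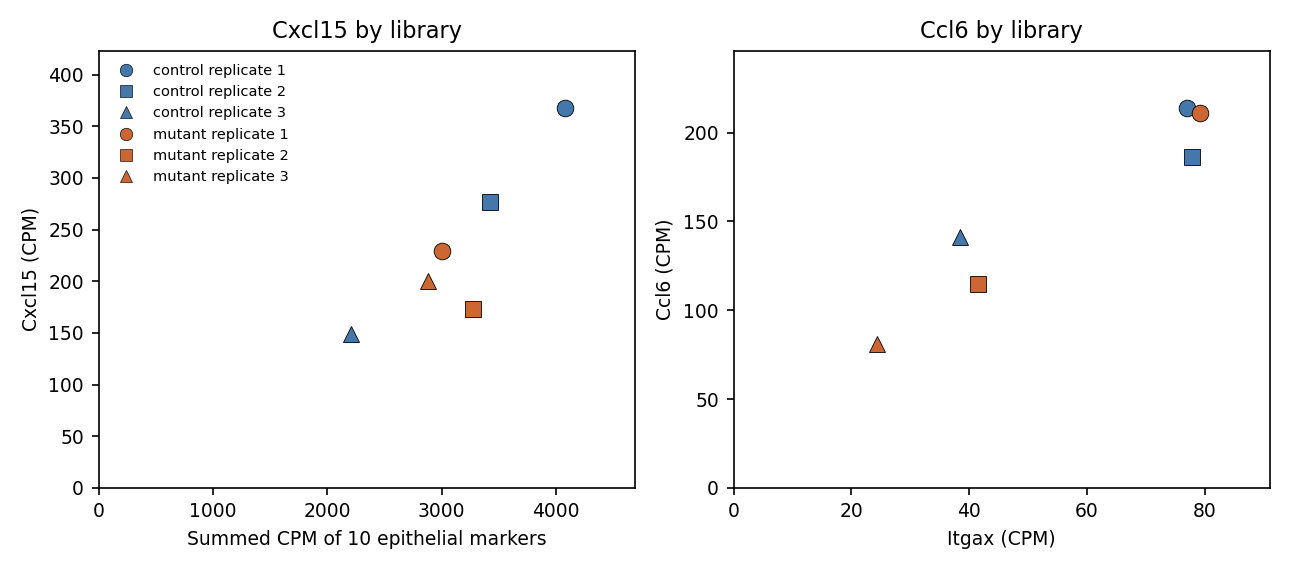
Left, Cxcl15 in CPM against the summed CPM of 10 epithelial markers; right, Ccl6 against Itgax, both in CPM, with 1 symbol per library (blue control, orange mutant). Control replicates 1 to 3 span 368 to 149 CPM of Cxcl15, and mutant replicate 3 has the lowest Ccl6, 80.8 CPM, and the lowest Itgax, 24.4 CPM. Itgax was chosen for this match after its values were seen.

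Ligands induced early in inflammation overlapped between the groups, and none passed. Ccl3, a ligand of Ccr1, stood at 14.3, 16.6 and 20.4 CPM in the controls and 16.5, 17.6 and 17.5 CPM in the mutants. Ccl4, an attractant of monocytes and T cells, stood at 9.38, 8.12 and 13.6 CPM and then 10.9, 11.8 and 10.1 CPM. Their log2 fold changes were 0.01 (SE 0.15) and 0.07 (SE 0.20), with edgeR adjusted p = 0.988 and 0.916. Cxcl2, a neutrophil attractant, stood at 16.4, 33.2 and 32.7 CPM in the controls and 31.6, 32.1 and 23.2 CPM in the mutants (0.08, SE 0.28, adjusted p = 0.926), and Cxcl1 at 11.0, 18.3 and 9.60 CPM and then 13.6, 21.5 and 15.2 CPM (0.38, SE 0.27, adjusted p = 0.589). Control replicate 1 was low for Cxcl2, as it was for Ccl2 and Ccl7, but not the lowest control for Cxcl1. Cxcl3 and Cxcl5, of the same receptor, had at most 10 and 8 counts in any library and were not tested.

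The eosinophil attractant Ccl11 was the remaining tested ligand whose groups did not overlap. Control replicates 1, 2 and 3 had 0.513, 0.142 and 0.386 CPM, and mutant replicates 1, 2 and 3 had 1.32, 1.13 and 0.585 CPM, which rests on 2 to 11 and 12 to 24 counts per library. Its log2 fold change of 1.43 (SE 0.48) did not pass (edgeR adjusted p = 0.185, unadjusted p = 0.0139). In all, the groups did not overlap in 3 of the 22 tested ligands (13.6%), against 20.6% of all genes tested (11.6% higher and 9.04% lower in the mutants). Ccl24, which shares the receptor Ccr3 with Ccl11, had a log2 fold change of -0.35 (SE 0.47).

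Homeostatic and lymphoid ligands were low or at 0. Ccl25, Ccl27a, Cxcl14 and Cxcl17 stood between 0.377 and 2.03 CPM, with log2 fold changes of -0.27 to 0.14 and 0 of 4 called by edgeR or at an unadjusted p under 0.05. Ccl20 had 0 counts in the controls and at most 2 in a mutant library, under the floor of 3, and Cxcl13 had at most 7 in any library. In all, 8 ligands were listed at 0 in every library: Ccl1, Ccl19, Ccl21b, Ccl21c, Ccl26, Ccl27b, Ccl28 and Xcl1. A count of 0 allows up to 0.140 to 0.214 CPM in a library, with 3 counts as the floor and counting error alone considered. That limit does not hold where reads that fit several near-identical copies were set aside, and Ccl19, Ccl21b, Ccl21c and Ccl27b belong to a duplicated stretch of chromosome 4. Prox1, the defining transcription factor of lymphatic endothelium, stood at 50.5 to 71.7 CPM over all libraries and is named after its values were seen. That endothelium is the usual source of Ccl21, but Ccl21a is left out here, so these values do not give the level of Ccl21 as a whole. Why Ccl21b and Ccl21c were at 0 was not tested. Lyve1, a hyaluronan receptor, rose from 656 to 743 CPM in the controls to 951 to 986 CPM in the mutants (log2 fold change 0.44, SE 0.08, edgeR adjusted p = 0.0166). Of the 6 lymphatic markers, 1 rose, 0 fell and 5 were not called, while 1.93% of all genes tested rose. The log2 fold change was above 0 in 3 of the 6 and below 0 in 3, with a median of -0.03.

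Chemokine receptors were described from a list of 19 signalling and 4 atypical receptors, of which 20 were tested, 2 rose, 1 fell and 17 did not pass, so that 15.0% of those tested were called, against 3.27% of all genes tested. The groups did not overlap in 5 receptors (25.0%), near the 20.6% of all genes tested. The atypical receptors bind ligands without the usual G protein signal and remove or hold them. Ackr2 degrades inflammatory CC ligands such as Ccl2 and Ccl5. Its control replicates 1, 2 and 3 had 132, 96.5 and 94.6 CPM, and mutant replicates 1, 2 and 3 had 68.1, 57.2 and 76.1 CPM. Every mutant library lay below every control, with a log2 fold change of -0.68 (SE 0.15, edgeR adjusted p = 0.0471). Ackr2 missed the threshold in limma-voom (adjusted p = 0.0519) and in edgeR with control replicate 1 or 2 left out (0.0569 and 0.0850) or mutant replicate 1 or 2 left out (0.122 and 0.208). Ackr3, which takes up Cxcl11 and Cxcl12, rose from 230.0, 214 and 251 CPM to 347, 359.6 and 410.0 CPM (log2 fold change 0.69, SE 0.10, adjusted p = 0.00378), a call kept in all 12 alternatives. Cxcr4, the signalling receptor of Cxcl12, rose from 80.9, 111 and 109 CPM to 202, 149.9 and 148 CPM (0.73, SE 0.16, adjusted p = 0.0473), and with 1 library left out it passed in 1 fit only, that without mutant replicate 3, with an adjusted p of at most 0.13 in the others.

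Neither receptor of the 2 called ligands was called. Cxcr3, the receptor of Cxcl10, had too few counts to be tested, at 0.280 to 0.289 CPM in the controls and 0.110 to 0.488 CPM in the mutants. Cx3cr1, the receptor of Cx3cl1, stood at 20.2, 30.0 and 29.4 CPM in the controls and 15.5, 25.9 and 45 CPM in the mutants, with overlapping groups (log2 fold change 0.13, SE 0.38, edgeR adjusted p = 0.919). Cxcr5, a receptor of B cells, had mutant libraries above all controls, at 13.1 to 15.1 and 15.5 to 22.5 CPM, but did not pass (log2 fold change 0.51, adjusted p = 0.152), and Cxcr6, the receptor of Cxcl16, had mutant libraries below all controls at under 1 CPM (-0.99, adjusted p = 0.413). Ccrl2 and Ccr7 stood at 37.9 to 44.6 and 25.7 to 42.1 CPM in the controls and 38.0 to 46.0 and 36.6 to 44.1 CPM in the mutants. The 11 lymphocyte markers in the table summed to 166 to 185 CPM in control and 197 to 259.6 CPM in mutant libraries. The highest sum was in mutant replicate 3. Of the 8 tested, 4 had a log2 fold change above 0 and 4 below, and 0 were called by edgeR. At an unadjusted edgeR p under 0.05 there were 3, against 2095 of all 14934 genes tested. The 3 were the B cell markers Cd79a, Cd79b and Ms4a1. Their mutant libraries all lay above the controls, as did those of 11.6% of all genes tested. The part of lymphocytes in the levels of Cxcl10 and Cxcr5 was not tested.

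**Figure D5:**
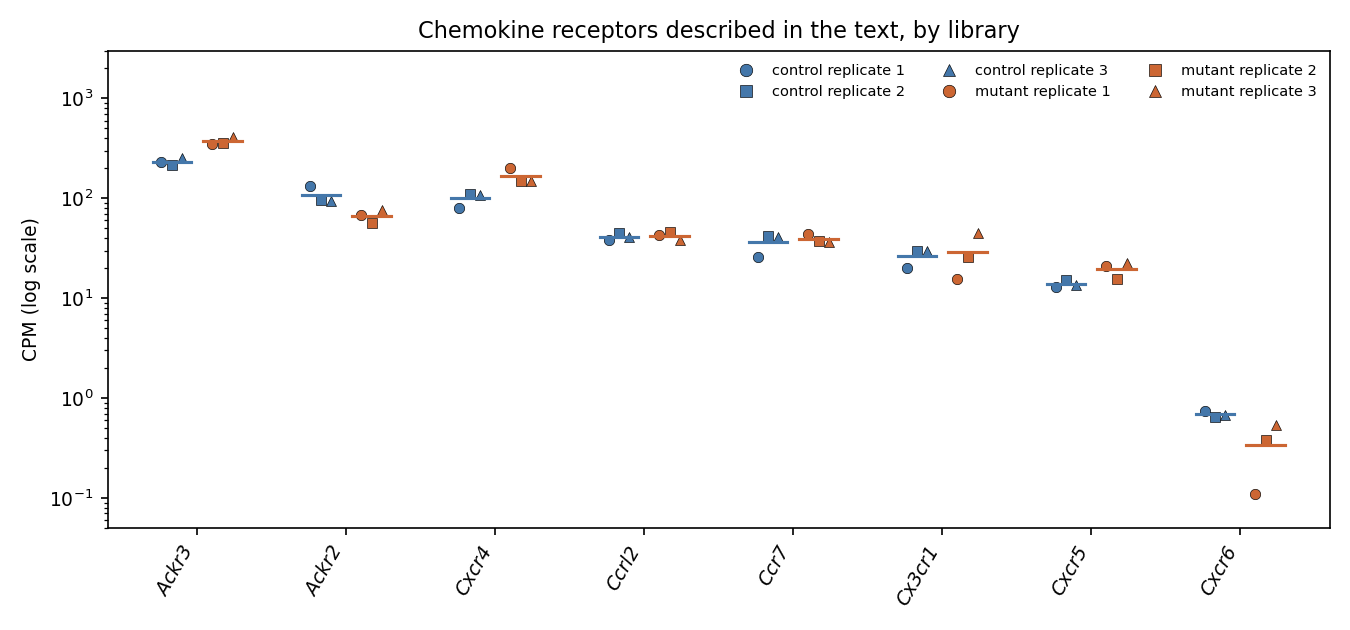
Level of 8 of the 20 tested receptors in CPM on a log axis, ordered by control mean, with 1 symbol per library (blue control, orange mutant) and a bar for each group mean. Ackr3 and Cxcr4 lie higher and Ackr2 lower in the mutants, and Cx3cr1 overlaps.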

How the data were processed

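RNA of CD31-selected lung cells was sequenced in 3 control and 3 mutant libraries, grouped by their titles. The deposited values are raw counts per gene symbol, made by the authors; per the submitters' processing notes the build was mm10 and DESeq2 was used in a role not stated, and the aligner, counter, annotation and handling of multiply mapped reads were not found in them. The deposited series table and the per-library counts differed in 0 values. Reads with no feature, 53.9% to 58.2% of all (95% Clopper-Pearson intervals cover counting error only), and ambiguous reads, 0.288% to 0.366%, were left out.

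Counts were analysed with edgeR 4.0.16 in R 4.3.3: filterByExpr by group (14934 genes kept), TMM factors, a robust quasi-likelihood fit without covariates, and Benjamini-Hochberg adjustment over all genes tested. An SE was taken as the fitted log2 fold change over the root of its F statistic. CPM uses TMM-scaled library sizes, and CPM per kb the union of GENCODE M21 exons, matched by symbol for 36 of 37 ligands. Promoters are RefSeq's on GRCm38.p6. Alternatives were DESeq2 1.42.0, limma-voom 3.58.1, RLE and upper-quartile factors, no filter, the replicate number as a block, and each library left out. The fitting functions were tested on simulated counts. The members, gene lists and motifs were chosen with earlier results of these data known. Every ligand could be named; library values were given for those called, without overlap, most abundant or interferon-induced, for called, non-overlapping or abundant receptors, and for a few genes of other lists. Other exceptions are marked in the text, and 1 receptor counted in the receptor list is not reported here.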

Additional observations from a re-analysis of the deposited data

How the results depend on the processing

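Over all genes tested, 488 were called by edgeR, 754 by DESeq2 and 211 to 428 without 1 library, the fewest without mutant replicate 2; 293 and 325 were called without control replicates 2 and 3. Of the ligands 2 were called, 1 by limma-voom (Cxcl10) and 0 to 1 without 1 library, with 0 without mutant replicate 2; of the receptors 3 were called and 1 to 3 without 1 library. A fit without 1 library loses both a sample and that library's own values, and the cause of the changes in these counts was not tested. The replicate numbers were not taken to pair the samples in the main fit. Deviations from the group means correlated at 0.0243, 0.0304 and 0.239 between same-numbered libraries over 12082 genes. The last was the highest of all control and mutant pairs, but not every library correlated best with its own number. With 3 libraries per group the deviations depend on one another, so these correlations cannot decide whether samples were paired. With the replicate block 466 genes (3.12% of those tested), 2 ligands and 2 receptors were called, and the call of Cxcr4 ended (edgeR adjusted p = 0.133). The median log2 fold change of the other ligands was -0.07 to 0.12 without 1 library, against 0.02. That of the interferon-induced ligands, 0.42, was 0.27 without mutant replicate 3, 0.68 without mutant replicate 1, between these without any other library, and 1.38 on the narrow list.

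Signs turned only among ligands that were not called. Without 1 library the log2 fold change ranged from -0.13 to 0.34 for Ccl2, -0.11 to 0.16 for Ccl3, -0.07 to 0.32 for Ccl4, -0.24 to 0.18 for Cxcl14, -0.19 to 0.16 for Ccl27a, -0.19 to 0.24 for Cxcl2, -0.60 to 0.29 for Ccl24, -0.03 to 0.40 for Ccl25 and -0.35 to 0.31 for Ccl22. Ccl3 was at -0.01 with upper-quartile factors, and Cxcl14 at -0.02 with limma-voom and -0.01 with the replicate block. Cxcl9 had 5 to 39 and Ccl11 2 to 24 counts per library, which limits the precision of their values.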

Other observations

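With no low-count filter the 7 ligands that had counts but were not tested, namely Ccl8, Ccl17, Ccl20, Cxcl3, Cxcl5, Cxcl11 and Cxcl13, could be fitted too, and 0 of them passed (edgeR adjusted p of 0.304 for Cxcl11 and 0.437 for Ccl20, the smallest of the 7). At an unadjusted p under 0.05 there was 1, Cxcl11 (unadjusted p = 0.0242), which rests on 7 counts in all, and DESeq2 and limma-voom were not run without the filter.

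Genes that respond mostly to interferon-gamma in textbooks, a list of 16 with guanylate-binding proteins and immunity-related GTPases, had 14 tested members, of which 10 rose and 0 fell, with a median log2 fold change of 1.25; over all genes tested 1.93% rose. The 2 genes Gbp2, which rose, and Irf1, which was not called, are also on the interferon response list, so the lists are not separate. Cd274, which encodes the checkpoint ligand PD-L1, went from 17.2, 21.4 and 21.2 CPM in control replicates 1, 2 and 3 to 34.3, 39.2 and 43.4 CPM in mutant replicates 1, 2 and 3 (edgeR adjusted p = 0.00316). Ciita, a regulator of class II antigen presentation, did not pass (log2 fold change -0.27, adjusted p = 0.743) and is named here after its values were seen. Many of these genes also respond to type I interferon.

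Mutant replicate 3 had the highest level among the mutants for Ccl12 and Cxcl9 and for the macrophage genes Fcgr1, at 3.40, 10.6 and 15.3 CPM in mutant replicates 1, 2 and 3, and C1qa, at 20.9, 39.6 and 50.1 CPM. In control replicates 1, 2 and 3 these stood at 3.69, 3.56 and 4.63 CPM for Fcgr1 and 22.6, 26.1 and 33.7 CPM for C1qa, and neither passed (edgeR adjusted p = 0.295 and 0.619). C1qa is named after its values were seen. The median of the interferon response list was also highest in mutant replicate 3, at 1.34, 2.27 and 2.43 in mutant replicates 1, 2 and 3 on the log2 scale relative to the control mean. The part of macrophages and that of the interferon response in the levels of Ccl12 and Cxcl9 were not tested. Of the 16 macrophage and monocyte markers, mutant replicate 3 was the highest library for 8 and the lowest for 3, among them Marco, at 34.3, 21.8 and 12.4 CPM, and Chil3, at 31.1, 25.4 and 11.7 CPM in the mutants, both named after their values were seen.

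Within the dendritic cell list of 7, 5 were tested, 1 fell and 4 were not called, while 1.34% of all genes tested fell. The 1 was Clec9a, from 58.0, 59.7 and 54.4 to 34.8, 28.3 and 33.6 CPM (log2 fold change -0.83, edgeR adjusted p = 0.00264). Flt3 (log2 fold change 0.12) and Ccr7 (0.13) lay above 0, and Zbtb46 (-0.20) and Itgax (-0.41) below. Which cells the Clec9a transcripts came from was not tested. Xcr1, the receptor of Xcl1, stood at 0.241 to 0.712 CPM in the controls and 0.494 to 0.628 CPM in the mutants and did not pass (edgeR adjusted p = 0.799). Xcl1 was at 0 in every library.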
